A study of Homo sapiens with 6 samples.

Results

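The genes described are 8 antiviral effectors that interferon is known to induce, namely MX1, MX2, RSAD2 (viperin), CMPK2, BST2 (tetherin), IFITM1, IFITM2 and IFITM3. They are 8 of the 58174 genes in the deposited expression table and 8 of the 16321 genes that were tested. The 8 genes were selected with the difference between the study's groups already known, so their values are given as a description and without a p-value. All 8 passed the filter on low values.

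SiHa is an established line of human cervical squamous carcinoma cells, and 3 samples received the BRCA1 plasmid GV230-BRCA1 (OV-BRCA1 group) while 3 received GV230 without insert (NC group). Both groups were lipofected with plasmid DNA and were collected after 48 h, and no untransfected sample was analysed here. The mRNA was sequenced and reported as FPKM, the fragments per kilobase of transcript scaled to all mapped fragments of a sample, which allows levels to be compared between genes of different length. BRCA1 itself was at 35.7, 40.8 and 34.9 FPKM after GV230-BRCA1 and at 20.1, 14.9 and 21.7 FPKM after empty GV230, a log2 fold change of 0.95 ± 0.14 (SE; limma, Benjamini-Hochberg adjusted p = 0.00373), and transcripts of the plasmid and of the chromosomal gene cannot be told apart in these values.

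Type I and type III interferons signal through receptors and the kinases JAK1 and TYK2 to ISGF3, a complex of STAT proteins with IRF9. ISGF3 binds the interferon-stimulated response element, a repeat of the bases GAAA with a short spacer, in the promoters of many antiviral genes. Their products act at different steps of infection. IFITM proteins sit in membranes and hinder fusion of viral envelopes, MX GTPases trap incoming viral particles or nucleocapsids, viperin makes a chain-terminating analogue of CTP from substrate that its neighbour CMPK2 can supply, and tetherin holds budding virions at the cell surface.

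Promoter sequence was read for 6 of the 8 genes from RefSeq windows (GRCh38.p14) that run from 250 bases before to 50 bases after an annotated start. The windows were searched on both strands for GAAANNGAAA, the spacing of the interferon-stimulated response element, and for GAAANGAAA, a form with a shorter spacer, and matches of the 2 forms can overlap. These pieces of 30 bases are shown because they hold matches in windows of 6 genes, and for CMPK2 and the second RSAD2 piece because the same bases lie in windows of both genes on opposite strands. Capitals mark the matching bases, and a match to the other strand reads TTTC.
MX1: caggagctaggTTTCGTTTCtgcgcccgga
MX1: gggtctgtgagTTTCATTTCttcgcggcgc
RSAD2: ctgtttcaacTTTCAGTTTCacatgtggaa
RSAD2: agcgttgcgggGAAACGAAAgccggaggcc
CMPK2: gggcctccggcTTTCGTTTCcccgcaacgc
BST2: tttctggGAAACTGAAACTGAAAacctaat
IFITM1: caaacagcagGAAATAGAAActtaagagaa
IFITM1: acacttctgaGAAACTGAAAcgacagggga
IFITM3: agGAAAAGGAAActgttgaGAAACCGAAAc

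The MX1 pieces lie at chr21:41426115-41426144 and chr21:41426160-41426189 on the plus strand, upstream of a start at position 41426239. The RSAD2 pieces lie at chr2:6877622-6877651, before the start of its main transcript, and at chr2:6865814-6865843. The CMPK2 piece at chr2:6865815-6865844 on the minus strand holds the same match as the second RSAD2 piece, read from the other strand. The BST2 piece is at chr19:17405738-17405767 on the minus strand, the IFITM1 pieces are at chr11:313990-314019 and chr11:314024-314053 on the plus strand, and the IFITM3 piece is at chr11:320885-320914 on the minus strand. By GENCODE 29 the MX1 pieces also lie within an exon of ENST00000455164, which starts further upstream, the IFITM3 piece lies within an exon of ENST00000399808, the IFITM1 pieces lie in or across the edge of an exon of ENST00000328221, and the BST2 piece lies in an exon of the noncoding gene BISPR on the other strand.

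GAAANNGAAA was present in at least 1 window of MX1, RSAD2, BST2, IFITM1 and IFITM3, against 4.38% of all 27305 genes with RefSeq windows. For MX1 it was absent from the window with the most signal, at the start 41426239. Transcripts starting in that MX1 window summed to 158 FPKM on average in OV-BRCA1 samples. The GAAANNGAAA matches of MX1 lay in its other windows, with less signal. MX1 had 3 windows, against 35116 windows for all 27305 genes, and more windows give more chances of a match. BST2 held 2 overlapping matches, and IFITM1 and IFITM3 held 2 separate ones each. GAAANGAAA was present in windows of MX1, RSAD2 and CMPK2, against 3.87% of all genes, and 1 RSAD2 window held 4 copies. The window at the CMPK2 start with the most signal, at 6866635, held neither form. Transcripts starting there summed to 46.7 FPKM on average in OV-BRCA1 and 6.18 FPKM in NC samples, and are annotated as processed transcripts, not as coding. The coding transcripts ENST00000404168 and ENST00000256722 start at 6865712 and 6865696, outside the CMPK2 windows. The 4 GAAANGAAA copies in the RSAD2 window, between 6865733 and 6865833, lie upstream of these coding starts. The other RSAD2 window, from which the piece at chr2:6877622-6877651 was taken, also held TATAAA, found in 11.5% of all windows, 30 bases before the RefSeq start at 6877777, which lies downstream of the GENCODE 29 start of ENST00000382040 at 6877665. Transcripts starting in the RSAD2 window shared with CMPK2 summed to 0.942 FPKM in OV-BRCA1 samples, and those in the IFITM1 window to 39.4 FPKM, while the main IFITM1 transcript ENST00000328221 starts at position 313527, outside the window. The matches are a description of the letters and say nothing about binding.

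Levels of all 8 genes were higher in each OV-BRCA1 sample than in each NC sample, a pattern seen in 23.4% of all tested genes. Since the genes were selected on this contrast, nothing is read from that count. The difference of the group means on the log2(FPKM + 1) scale ran from 0.56 for IFITM3 to 4.36 for RSAD2, with a median of 2.86, against a median of -0.04 over all tested genes. It was past 1 in 6 of the 8 genes, and IFITM2 and IFITM3 lay below. Of all tested genes, 2.89% were upregulated differentially expressed genes (DEGs, adjusted p below 0.05 and a log2 fold change above 1) and 1.10% were downregulated DEGs, and with the smaller pseudocount of 0.1 the 472 upregulated and 179 downregulated DEGs became 764 and 516. In bulk RNA, more cells carrying a transcript and more transcript per cell cannot be told apart.

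**Figure D1:**
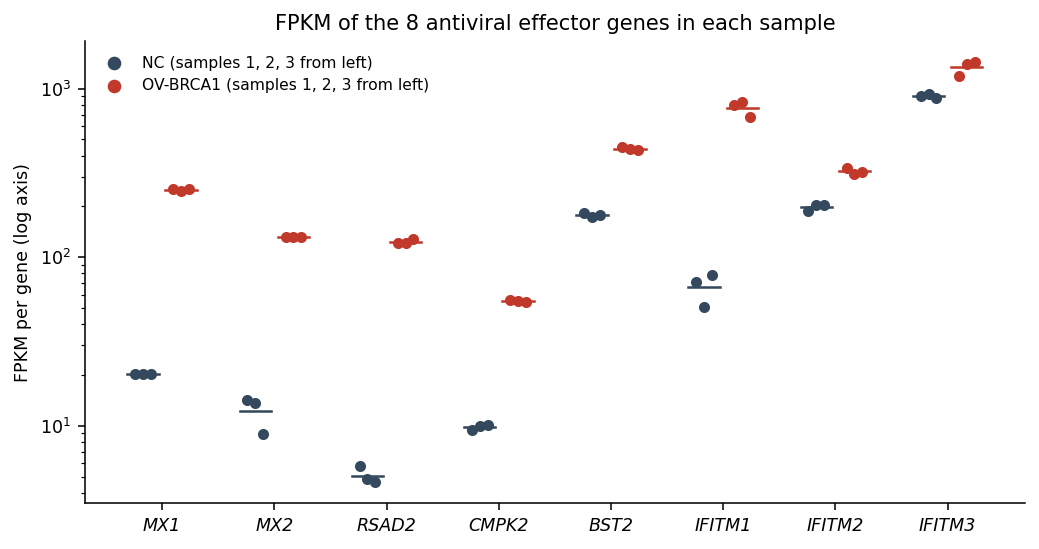
FPKM of each of the 8 genes in each of the 6 samples on a log axis, with NC samples in dark blue, OV-BRCA1 samples in red and a line at each group mean. The red points lie above the dark blue points for each gene, with the widest gap for RSAD2 (123 against 5.07 FPKM) and the narrowest for IFITM3 (1336 against 902 FPKM).

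MX1 encodes MxA, a dynamin-like GTPase with broad activity against RNA viruses. Its level was 252, 246 and 255 FPKM in OV-BRCA1 samples 1 to 3, in that order, against 20.2, 20.4 and 20.3 FPKM in NC samples 1 to 3. The NC values were the tightest of the 8 genes, with a coefficient of variation of 0.412%, and no OV-BRCA1 value came near them. The means were 251 ± 4.30 FPKM and 20.3 ± 0.0835 FPKM (SD, n = 3 each), a ratio of 12.4. Ordered by level among the tested genes, MX1 stood at place 3750 in the NC group and at place 210 in the OV-BRCA1 group.

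MX2 encodes MxB, which is known for restricting HIV and herpesviruses at the nuclear pore. It lies beside MX1 on chromosome 21, at 41361943 to 41409390 against 41420304 to 41459214 (GENCODE 29 on GRCh38), on the same strand. Its level was 132, 132 and 131 FPKM in the OV-BRCA1 samples and 14.1, 13.6 and 8.97 FPKM in the NC samples. The OV-BRCA1 samples were nearly equal, while NC sample 3 was lower than the other NC samples. The ratio of the means, 132 ± 0.494 to 12.2 ± 2.84 FPKM (SD, n = 3 each), was 10.8.

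The ratio of MX1 to MX2 was 1.92, 1.86 and 1.94 in the OV-BRCA1 samples and 1.43, 1.50 and 2.27 in the NC samples. The 2 groups overlapped in this ratio, and the spread in the NC group came from MX2. The coding sequences of their most abundant coding transcripts were identical at 72.6% of 1962 aligned bases, and the longest run shared by the transcripts was 68 bases. MX1 and MX2 shared no exon bases.

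RSAD2 encodes viperin, a radical SAM enzyme of the endoplasmic reticulum and lipid droplets. Its level was 121, 122 and 128 FPKM in the OV-BRCA1 samples and 5.74, 4.84 and 4.61 FPKM in the NC samples. RSAD2 had the lowest NC level of the 8 genes and the largest ratio, 24.4, between means of 123 ± 3.71 and 5.07 ± 0.595 FPKM (SD, n = 3 each). Its log2 difference was at place 3 among all tested genes.

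CMPK2 encodes a mitochondrial nucleoside monophosphate kinase that phosphorylates UMP and CMP. It reached 55.7, 55.1 and 54.2 FPKM in the OV-BRCA1 samples and 9.45, 9.99 and 10.1 FPKM in the NC samples. All 6 values were close to their group means, 55.0 ± 0.769 and 9.86 ± 0.359 FPKM (SD, n = 3 each), and the ratio was 5.58.

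RSAD2 and CMPK2 lie head to head on chromosome 2, RSAD2 on the plus strand at 6865806 to 6898239 and CMPK2 on the minus strand at 6840570 to 6866635. In the NC group CMPK2 stood above RSAD2, and in the OV-BRCA1 group RSAD2 stood above CMPK2. The ratio of RSAD2 to CMPK2 was 2.16, 2.21 and 2.35 in the OV-BRCA1 samples and 0.607, 0.485 and 0.456 in the NC samples. By gene sum the order of the pair was thus reversed in each sample of the other group. By group means the CMPK2 sum stood mostly on a processed transcript, and the order for coding transcripts alone was not compared. The annotated exons of the 2 genes overlap by at most 14 bases, through 1 transcript of each gene. Without that transcript RSAD2 was at 123 ± 3.91 against 4.84 ± 0.438 FPKM and CMPK2 at 54.5 ± 0.699 against 9.66 ± 0.283 FPKM (SD, n = 3 each), so the ratios of 25.4 and 5.65 were close to those of the whole genes. Whether reads were counted by strand is not given in the sources used here.

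BST2 encodes tetherin, a membrane protein anchored at both ends that links budding virions to the cell and to each other. It lies at 17402939 to 17405648 on the minus strand of chromosome 19. Its level was 448, 439 and 434 FPKM in the OV-BRCA1 samples and 182, 173 and 178 FPKM in the NC samples. BST2 was already the 309th most abundant tested gene in the NC group and stood at place 106 in the OV-BRCA1 group. The ratio of 440.5 ± 7.15 to 178 ± 4.52 FPKM (SD, n = 3 each) was 2.48, smaller than for MX1 or RSAD2, while the difference of 263 FPKM exceeded those of both.

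**Figure D2:**
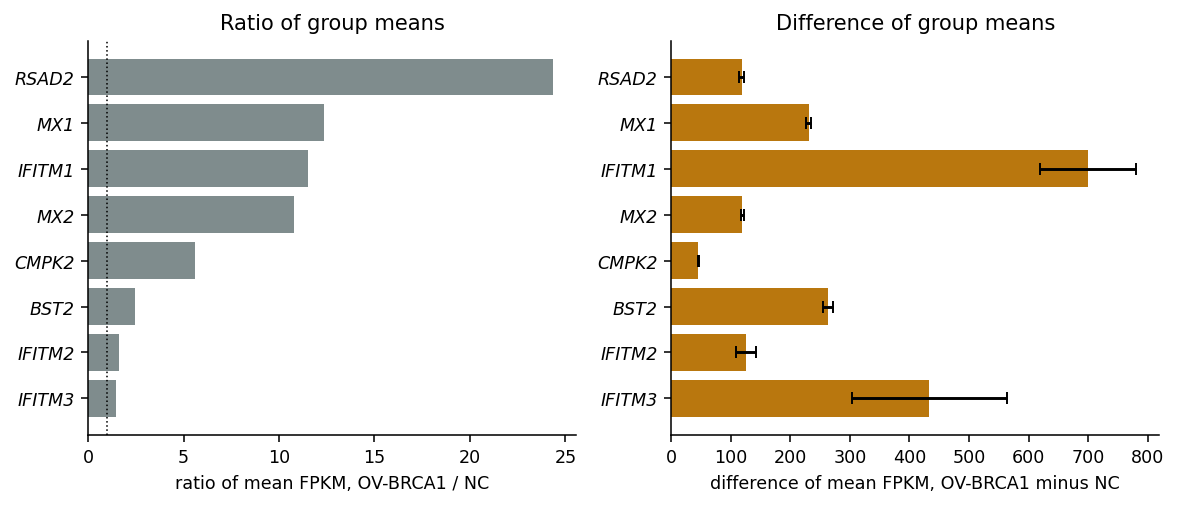
Ratio of the group means (left) and difference of the group means in FPKM (right, bars with the root of the summed squared group SDs as error) for each of the 8 genes, ordered by the ratio, with a dotted line at a ratio of 1. The order by ratio, led by RSAD2 at 24.4, differs from the order by difference, led by IFITM1 at 700.2 FPKM and IFITM3 at 434 FPKM.

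The IFITM genes encode small membrane proteins that make endosomal and plasma membranes resistant to viral fusion, with IFITM1 mainly at the cell surface and IFITM2 and IFITM3 mainly in endosomes. The 3 genes lie together on chromosome 11, IFITM2 at 307631 to 315272 and IFITM1 at 313506 to 315272 on the plus strand and IFITM3 at 319669 to 327537 on the minus strand. Their ratios of group means differed widely, from 11.5 for IFITM1 to 1.63 for IFITM2 and 1.48 for IFITM3.

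IFITM1 was at 797, 827 and 677 FPKM in the OV-BRCA1 samples and at 71.1, 50.9 and 78.0 FPKM in the NC samples. OV-BRCA1 sample 3 and NC sample 2 were the lowest of their groups, but the lowest OV-BRCA1 value was still 8.68 times the highest NC value. The means were 767 ± 79.3 and 66.7 ± 14.1 FPKM (SD, n = 3 each), and the difference of 700.2 FPKM was the largest of the 8 genes.

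IFITM2 was at 339, 313 and 319 FPKM in the OV-BRCA1 samples and at 188, 203 and 204 FPKM in the NC samples. The means were 324 ± 13.6 and 198 ± 9.05 FPKM (SD, n = 3 each). The groups did not overlap, and the lowest OV-BRCA1 value was 1.53 times the highest NC value.

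IFITM3 was the most abundant of the 8 genes in both groups, at 1191, 1389 and 1427 FPKM in the OV-BRCA1 samples and at 898, 932 and 876 FPKM in the NC samples. The means were 1336 ± 127 and 902 ± 28.2 FPKM (SD, n = 3 each). It stood at place 42 of the tested genes in the NC group and at place 31 in the OV-BRCA1 group, and OV-BRCA1 sample 1 lay nearest to the NC samples.

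The makeup of the IFITM family differed between the groups. IFITM1 held 34.3%, 32.7% and 27.9% of the summed IFITM FPKM in the OV-BRCA1 samples and 6.14%, 4.29% and 6.74% in the NC samples. The share of IFITM3 was 51.2%, 54.9% and 58.9% against 77.6%, 78.6% and 75.7%. The ratio of IFITM3 to IFITM2 overlapped between the groups, with 3.52, 4.44 and 4.47 in the OV-BRCA1 samples and 4.78, 4.58 and 4.30 in the NC samples. The sum of the 3 genes was 2426 ± 101 FPKM in OV-BRCA1 and 1167 ± 16.7 FPKM in NC samples (SD, n = 3 each).

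**Figure D3:**
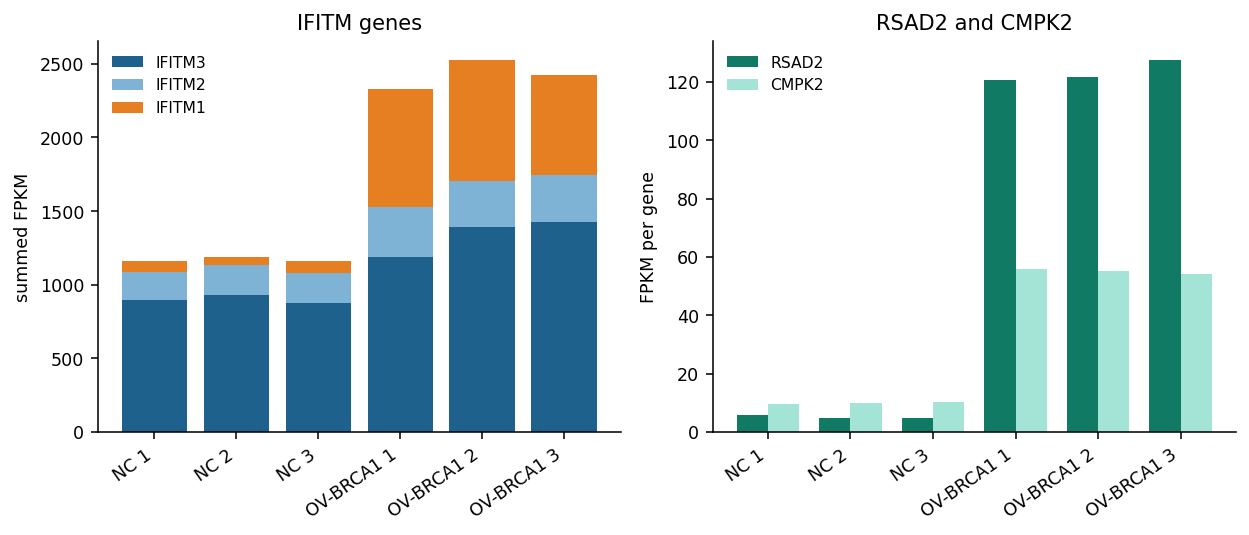
Left, FPKM of IFITM1, IFITM2 and IFITM3 stacked for each sample. Right, FPKM of RSAD2 and CMPK2 side by side for each sample. The IFITM1 part of the stack widens from at most 6.74% in the NC samples to at least 27.9% in the OV-BRCA1 samples, and the RSAD2 bar is the lower of its pair in the 3 NC samples and the higher in the 3 OV-BRCA1 samples.

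The IFITM values carry a limit from shared sequence. The coding sequences of the main transcripts were identical at 86.8% of 334 aligned bases for IFITM1 and IFITM2. They were identical at 90.1% of 334 for IFITM1 and IFITM3 and at 93.9% of 396 for IFITM2 and IFITM3. The IFITM1 alignments also left 103 and 106 gap bases, against 3 for IFITM2 and IFITM3. The longest shared runs were 99, 141 and 99 bases, so reads from these runs could have been assigned to another member. An IFITM2 transcript that reads through into IFITM1, ENST00000399815, shares up to 351 exon bases with IFITM1 transcripts and was at 9.66 ± 0.802 against 2.25 ± 0.399 FPKM. Without it IFITM2 was at 314 ± 13.5 against 196 ± 8.96 FPKM (SD, n = 3 each), a ratio of 1.60.

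Over the 8 genes, the summed level was 3428 FPKM in OV-BRCA1 and 1392 FPKM in NC samples. The IFITM genes made up 61.9% of the difference of 2035 FPKM. The distance from the least to the most abundant gene was 178-fold in the NC group, between RSAD2 and IFITM3, and 24.3-fold in the OV-BRCA1 group, between CMPK2 and IFITM3. By mean level the NC order was IFITM3, IFITM2, BST2, IFITM1, MX1, MX2, CMPK2 and RSAD2, and MX2 and CMPK2 overlapped in their samples. In the OV-BRCA1 group the order was IFITM3, IFITM1, BST2, IFITM2, MX1, MX2, RSAD2 and CMPK2, with no overlap between neighbours.

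The depth of the libraries was estimated from the value of 1 fragment in the low FPKM values, at 14.16 to 16.71 M fragments in the OV-BRCA1 samples and 16.05 to 20.21 M in the NC samples. At that depth the lowest values rested on about 277 fragments for RSAD2, 406 for CMPK2, 487 for MX2 and 758 for MX1, all in NC samples, and on at least 810 for the remaining genes. Counting error was small beside the group differences, and these estimates cover counting error only.

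The division of a gene's signal over its transcripts was less steady than the gene sum. IFITM1 in NC sample 1 was listed at 0 for ENST00000328221, which carried 43.9 and 75.7 FPKM in NC samples 2 and 3, and its signal stood on ENST00000408968 at 35.7 FPKM and ENST00000528780 at 35.1 FPKM. CMPK2 in the same sample had 6.97 FPKM on ENST00000256722 and 1.37 FPKM on ENST00000478738, whereas the latter held 8.12 and 8.22 FPKM in NC samples 2 and 3. MX1 ENST00000455164 was listed at 0 or close to it in NC samples 1 and 2 and at 14.7 FPKM in NC sample 3, although the MX1 gene sum was nearly equal in these samples.

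**Figure D4:**
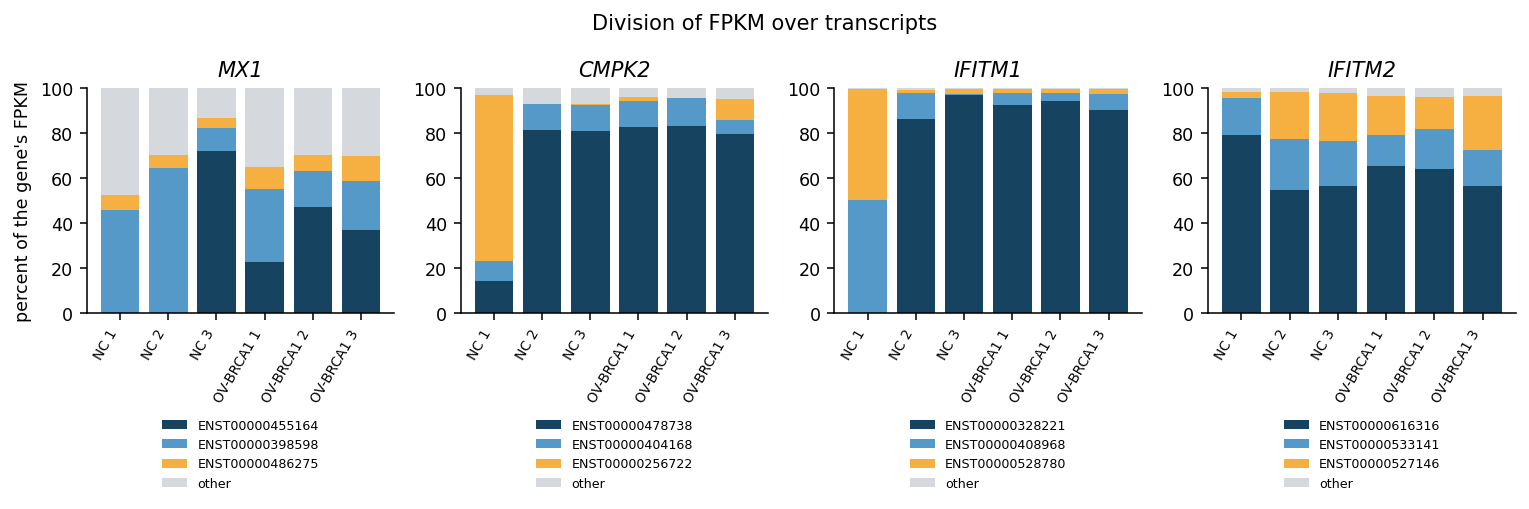
Percent of the FPKM of MX1, CMPK2, IFITM1 and IFITM2 on their 3 most abundant transcripts and on all others, for each sample. NC sample 1 stands apart for CMPK2, IFITM1 and IFITM2, and the MX1 shares differ between all NC samples.

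The other genes had a dominant transcript in both groups. ENST00000382040 held 93.0% of RSAD2 in OV-BRCA1 and 86.6% in NC samples, and ENST00000330714 held 72.7% and 73.0% of MX2. ENST00000252593 held 98.4% and 97.9% of BST2, and ENST00000399808 held 92.3% and 94.7% of IFITM3. Gene sums were therefore used for all comparisons.

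Genes of interferon signalling were compared as a list of 20, all tested. Of these, 9 rose and 2 fell at an adjusted p below 0.05, against 16.4% and 18.9% of all tested genes, and 4 were upregulated DEGs and none a downregulated DEG. The median log2 fold change of the list was 0.20. The DEGs included USP18, the protease that removes ISG15 and dampens receptor signalling, which rose from 9.83 ± 0.402 to 55.6 ± 0.762 FPKM (SD, n = 3 each; log2 fold change 2.38 ± 0.05 SE; limma, Benjamini-Hochberg adjusted p = 3.36e-06). IRF7, a transcription factor that drives interferon genes, rose from 28.9 to 90.6 FPKM (1.62 ± 0.12 SE; limma, Benjamini-Hochberg adjusted p = 0.000244). IRF1, named after its value was seen, lay at the edge of the fold criterion with 1.00 ± 0.20 SE.

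The ISGF3 components STAT2 and IRF9 rose without reaching the fold criterion. STAT2 was at 97.3 against 50.8 FPKM (0.93 ± 0.07 SE; limma, Benjamini-Hochberg adjusted p = 0.000218), and IRF9 was at 62.6 against 37.5 FPKM (0.72 ± 0.07 SE; adjusted p = 0.000745, but 0.0601 with the most abundant transcript). The receptor chains IFNAR1, at 11.4 against 12.3 FPKM, and IFNAR2, at 8.49 against 9.99 FPKM, did not pass the test (limma, Benjamini-Hochberg adjusted p = 0.465 and 0.362). Of the other receptor chains in the list, IFNLR1 (2.72 against 1.78 FPKM, adjusted p = 0.0212) and IFNGR1 (37.9 against 32.6 FPKM, adjusted p = 0.0283) rose. IL10RB and IFNGR2 did not pass. JAK1 and TYK2 were the 2 genes of the list that fell.

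Other antiviral effectors formed a list of 42 genes, of which 38 were tested. At an adjusted p below 0.05, 34 rose, none fell and 4 did not pass, and 27 were upregulated DEGs, against 16.4% higher, 18.9% lower and 2.89% upregulated DEGs among all tested genes. At an unadjusted p below 0.05 (limma), 36 were higher and 0 lower, against 21.0% and 25.0% of all tested genes. Without 1 gene that passed the filter only through the OV-BRCA1 group, 33 of 37 rose and 26 were DEGs. Its median change was 1.66 on the log2 scale. The list was written with results of these samples known and is no independent evidence of a direction. IFIT3, which binds other IFIT proteins on viral RNA, rose from 25.7 to 452 FPKM (4.08 ± 0.04 SE). IFIT2 rose from 14.3 to 248 FPKM (4.03 ± 0.05 SE), and TRIM22, an antiviral ubiquitin ligase, rose from 1.79 to 42.4 FPKM (3.96 ± 0.10 SE). Among the 8 effectors, RSAD2 had a larger log2 difference than these 3 genes, and MX1, IFITM1 and MX2 had smaller ones.

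Of 10 listed dynamin superfamily relatives of the MX genes, all tested, 1 rose and 3 fell, against 16.4% and 18.9% of all tested genes. Their median log2 fold change was -0.02. Guanylate-binding protein genes were counted with the other antiviral effectors and are not in this list. The only DEG was DNM1, the neuronal dynamin of endocytosis, which fell from 21.7 ± 2.11 to 7.69 ± 1.85 FPKM (SD, n = 3 each; -1.40 ± 0.16 SE; limma, Benjamini-Hochberg adjusted p = 0.0012). Of 7 tested radical SAM enzymes related to viperin, none passed the test, and the closest by name, RSAD1, was at 3.80 against 4.63 FPKM (adjusted p = 0.375). At an unadjusted p below 0.05, 2 were higher and 1 was lower, against the same 21.0% and 25.0%.

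Only 2 of 8 CD225 family relatives of the IFITM genes were expressed enough to be tested. PRRT2 was at 0.428, 0.203 and 0.477 FPKM in the OV-BRCA1 samples and at 0.809, 1.07 and 0.973 FPKM in the NC samples. It passed the filter on low values only through the NC group, so no p-value is given for it. The other was TMEM91, which did not pass the test. IFITM5, a bone mineralization gene in the same cluster, was at most at 0.369 FPKM in any sample. IFITM10 was at 0.127 against 0.389 FPKM. Neither of the 2 was tested.

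Of 21 genes of CTP synthesis and nucleotide phosphorylation, which share substrates with CMPK2 and viperin, 6 rose, 3 fell and 12 did not pass, against 16.4% and 18.9% of all tested genes, with a median of -0.02. SAMHD1, an enzyme that degrades dNTPs and also belongs to the antiviral list, was the only DEG and rose from 10.0 ± 0.347 to 43.6 ± 0.828 FPKM (SD, n = 3 each; 2.02 ± 0.05 SE; limma, Benjamini-Hochberg adjusted p = 4.63e-06). CMPK1, the cytosolic UMP and CMP kinase, was at 48.7, 24.8 and 50.6 FPKM in the OV-BRCA1 samples and at 43.5, 46.1 and 44.9 FPKM in the NC samples. OV-BRCA1 sample 2 stood apart, and CMPK1 did not pass the test (adjusted p = 0.635).

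**Figure D5:**
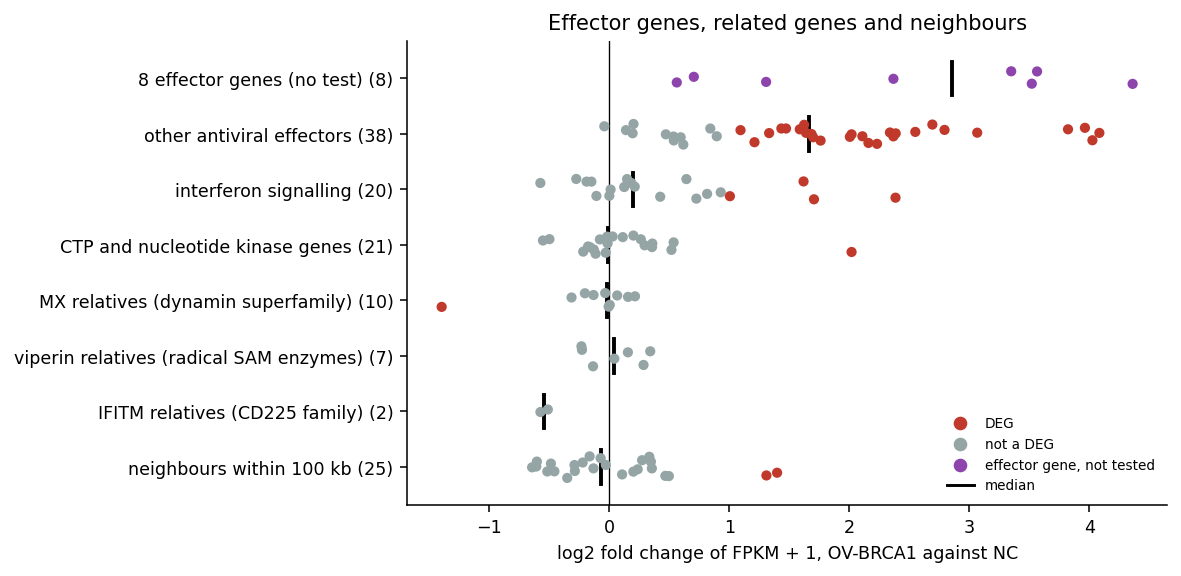
Log2 fold change (FPKM + 1, OV-BRCA1 against NC) of each tested gene in the compared lists, with DEGs in red, other genes in grey, the 8 effector genes in purple and the list median as a black line. The other antiviral effectors lie mostly to the right (median 1.66), and the relatives of the MX, viperin and nucleotide kinase genes lie around 0.

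Genes that overlap one of the 8 or lie within 100 kb numbered 51, of which 25 were tested. Of these, 2 passed the filter only through the OV-BRCA1 group, where they are high. Among the other 23, 2 rose and 6 fell, against 16.4% and 18.9% of all tested genes, and 1 was an upregulated DEG. The median log2 fold change of the 25 was -0.07. NRIR, an antisense RNA gene that begins 106 bases past the end of CMPK2, was at 1.69, 2.35 and 1.19 FPKM in the OV-BRCA1 samples and at 0.0803, 0 and 0 FPKM in the NC samples. It is 1 of the 2 that passed only through the OV-BRCA1 group, so its difference is a description. The DEG was CCDC194, 8781 bases from BST2, at 14.1, 13.2 and 10.5 against 3.48, 5.37 and 4.66 FPKM (1.31 ± 0.16 SE; limma, Benjamini-Hochberg adjusted p = 0.00178).

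BISPR, a noncoding gene that starts 38 bases from BST2 on the other strand, did not pass the test (4.43 against 3.61 FPKM, 0.24 ± 0.12 SE; limma, Benjamini-Hochberg adjusted p = 0.191). MVB12A, which starts 74 bases from BST2 on the strand of BISPR, fell (16.0 against 24.9 FPKM, -0.61 ± 0.10 SE, adjusted p = 0.00441). RNF144A, beyond RSAD2, also did not pass (1.08 against 0.727 FPKM, adjusted p = 0.0847). BACE2, before MX2, was at 4.34 against 2.84 FPKM (0.50 ± 0.15 SE, adjusted p = 0.0469), and this call was lost under 9 of the alternatives run, with adjusted p up to 0.128. On chromosome 11, PGGHG before IFITM2 did not pass (4.72 against 6.46 FPKM, -0.35, adjusted p = 0.306), but reached -0.61 with adjusted p = 0.0354 without NC sample 2. B4GALNT4 beyond IFITM3 was at 6.13 against 7.70 FPKM (-0.29 ± 0.07 SE, adjusted p = 0.0211), a call lost with the replicate number as a block (0.0556) and without NC sample 1 (0.0517), NC sample 3 (0.0679) or OV-BRCA1 sample 2 (0.063). The antisense genes that overlap the 8 were low. AP001610.1 within MX1 reached at most 0.303 FPKM, AC136475.2 across IFITM2 was at 0.817 against 1.03 FPKM (adjusted p = 0.584), and AC136475.1 across IFITM3 was at 1.57 against 2.56 FPKM (adjusted p = 0.0445), a call lost under 9 of the alternatives run.

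For each of the 8 genes, the 3 other tested genes with the smallest Euclidean distance of log2(FPKM + 1) over the 6 samples were found. CMPK2 had the closest, USP18 at a distance of 0.075, and CXCL2 was at 0.391. MX1 was nearest to IFIT2 (0.831), MX2 to LGALS3BP (0.661), DDX58 (1.09) and OAS2 (1.12), and IFITM1 to IFIT1 (0.802), WARS (1.58) and OAS1 (1.87). RSAD2 was nearest to CXCL8 (0.450), with NT5E (1.33) at place 3. BST2 was nearest to HSP90B1 (0.503), H1F0 (0.638) and IL6 (0.658). IFITM2 was nearest to IFI30 (0.172), CD55 (0.346) and DKK1 (0.408), and IFITM3 to PPIA (0.621), HIST1H2BK (0.637) and S100A11 (0.831). Next for MX1 were FP236383.3 (1.06) and RN7SL1 (1.10), and next for RSAD2 was FP671120.4 (1.11). The measure describes levels in 6 samples of 2 groups and carries no test.

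Some features of the libraries moved with the groups. Transcripts of the mitochondrial genome held 14.8% to 17.2% of the FPKM in the OV-BRCA1 samples and 21.0% to 23.2% in the NC samples. Scaling all samples to nuclear protein-coding genes left the log2 difference of MX1 at 3.53, of RSAD2 at 4.33 and of IFITM3 at 0.52. The correlation of log2(FPKM + 1) was 0.985 to 0.986 within groups and 0.951 to 0.955 between them. Of 11 squamous epithelial markers 7 were tested. The sum of the list was 1717 to 1862 FPKM in the OV-BRCA1 samples and 2066 to 2112 FPKM in the NC samples, with KRT17 lower (1033 against 1434 FPKM) and KRT8 (373 against 326 FPKM), KRT18 (252 against 192 FPKM) and the DEG EPCAM (6.79 against 2.59 FPKM) higher. Without KRT6A, which passed the filter only through the OV-BRCA1 group, 3 of 6 were higher and 1 lower at an adjusted p below 0.05, against 16.4% and 18.9% of all tested genes. KRT5, KRT14, KRT19 and TP63 had means below 1 FPKM in both groups. Of 12 leukocyte markers, 1 was tested, and the sums were 7.28 to 9.65 against 19.0 to 21.5 FPKM, nearly all from CD14, with PTPRC and MS4A1 at 0 in all samples. The summed 8 fibroblast and endothelial markers were at most at 4.63 FPKM in the OV-BRCA1 samples and between 6.69 and 7.45 FPKM in the NC samples, with LUM and VWF at 0. Their part in the levels of the 8 genes was not tested.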

How the data were processed

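SiHa mRNA was sequenced in 3 OV-BRCA1 and 3 NC samples, which the study describes as biological replicates. The deposited values are transcript FPKM, made by the authors from quality-filtered reads. The submitters' processing notes name FastQC, HISAT2 and hg38. The annotation, the quantification tool and the use of strand are not given in the sources used here. A table of the whole series held 199167 transcripts of 58174 genes in 6 columns, with the same values as the single files (0 differences). No columns of the authors' comparisons were present.

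Gene names and positions were taken from GENCODE 29, and FPKM were summed per gene. Genes with at least 0.5 FPKM in at least 3 samples were tested (16321) with limma's moderated test with trend on log2(FPKM + 1), a scale that understates the change of low genes, and Benjamini-Hochberg adjustment over all of them. The authors tested counts with DESeq, which was not repeated because the files hold no counts. A DEG passed at adjusted p below 0.05 with a log2 fold change above 1 in size. The test was checked on simulated data. Whole reads could not be recovered from the FPKM, since 30.9% to 35.5% of the low values lay within 0.1 of a whole fragment, so the depth of 14.16 to 20.21 M fragments per sample is an estimate.

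The 8 genes and the gene lists were chosen with earlier results of these data known. Other genes were named by rule. Per list the rule took the 3 DEGs with the largest change in each direction. It also took IFNAR1, IFNAR2, ISGF3 genes, CMPK1, RSAD1, IFITM5 and IFITM10. Genes overlapping one of the 8 or the nearest expressed on each side, and the 3 genes most alike in level, were included as well. JAK1, TYK2, IFNLR1, IFNGR1, IL10RB, IFNGR2, TMEM91, PRRT2, IRF1, MVB12A and the single cell type markers given with values were named after their values were seen. Not every gene that the rule takes is reported. Alternatives were a pseudocount of 0.1, no filter, the most abundant transcript in place of the sum, 2 scalings, the replicate number as a block and each sample left out. With 3 samples per group the smallest p of an exact permutation test is 0.1. R 4.3.3, limma 3.58.1, Python 3.11.15, numpy 2.4.6, pandas 2.3.3, matplotlib 3.10.9 and biopython 1.88 were used.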

Additional observations from a re-analysis of the deposited data

How the results depend on the processing

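Each of the 8 genes kept a positive log2 difference under every alternative run. Their median, 2.86, was 3.15 with the most abundant transcript, 2.96 with a pseudocount of 0.1 and 2.77 to 2.90 when a sample was left out, the lowest without NC replicate 3. The largest shifts were under the most abundant transcript, for IFITM1 (5.55), MX1 (5.11) and CMPK2 (2.98), whose signal was divided unevenly over transcripts in NC samples. DEGs over all genes numbered 651, 1280 (764 up, 516 down) with a pseudocount of 0.1, 564 to 663 with a sample left out and 646 with the replicate number as a block. The numbers did not pair the samples (correlation of deviations -0.024, 0.025 and 0.014 for equal numbers), and the block changed no count of DEGs in a list, but BACE2 (adjusted p = 0.0637), B4GALNT4 (0.0556), AC136475.1 (0.055) and PPIA (0.0949) no longer passed. NRIR, which passed the filter only through the OV-BRCA1 group, is counted here among the 2 DEGs of the neighbouring genes. These became 4 with the most abundant transcript and 1 without OV-BRCA1 replicate 1 or 3. Leaving out any OV-BRCA1 replicate left 23 neighbouring genes tested, and without replicate 2 the count stayed at 2. Among IFITM relatives 1 DEG appeared with a pseudocount of 0.1, PRRT2, which passed the filter only through the NC group. Left-out samples gave 3 to 4 DEGs in interferon signalling and 26 to 27 among the antiviral effectors. With the most abundant transcript BRCA1 (1.13) and STAT2 (1.34) passed the fold criterion, WARS (log2 fold change 3.01), HSP90B1 (2.23), IRF9 and CD55 lost the call (adjusted p = 0.0533, 0.122, 0.0601 and 0.121), and PPIA (-0.41) and RSAD1 (0.0334) changed sign, the cause of which was not tested. BRCA1 also passed it without NC replicate 1 (1.00) or 3 (1.06). With a sample left out CMPK1 ran from -0.35 to 0.15 and AC136475.2 from -0.34 to 0.0057, without OV-BRCA1 replicate 2 and 3 at the upper ends. Scaling shifted the median of all genes by less than 0.1.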
